A study of Mus musculus with 40 samples.

Results

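The comparison set small RNA pulled down from brown fat (IP) against the total small RNA of the same tissue (input), with 5 IP libraries and 5 input libraries among the 40 libraries of a series that also covered liver, muscle and hypothalamus. The libraries were chosen by their labels, and all 1894 mature miRNA entries of the deposited count table were considered, of which 939 had a count in brown fat. Both groups came from male UCP1;UPRT mice of 8 to 12 weeks on standard chow. These mice carry a Cre transgene under the Ucp1 promoter, which is active in brown and beige adipocytes, together with a CAG-GFP-Uprt transgene that encodes UPRT, an enzyme that turns thiouracil into a nucleotide for RNA synthesis. All mice received 4TU (4-thiouracil) into the peritoneum, 50 mg/kg in 4 injections spaced 48 h apart. The genotype, the 4TU and the dose are therefore shared by the IP and the input, and libraries from mice without UPRT or without 4TU were not analysed here. The pull-down takes RNA whose thiol groups have been biotinylated, with streptavidin. The 5 IP libraries came from mice 2, 4, 6, 7 and 10 and the 5 input libraries from mice 2, 4, 6, 7 and 8, so 4 pairs share a mouse. The IPs were sequenced in pool 2 and the inputs in pool 1, and an effect of the pool cannot be told apart from that of the pull-down.

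A miRNA is cut from a hairpin precursor, which gives a strand from its 5′ side (5p) and one from its 3′ side (3p). One of them, the guide strand, is usually kept in an Argonaute protein, and the other, the passenger strand, is mostly degraded. Bases 2 to 8 of the mature strand, the seed, pair with target mRNAs, and miRNAs with the same seed form a family. Brown fat burns fuel to make heat. Its miRNAs include miR-378a, encoded within the gene of a coactivator of mitochondrial biogenesis, the miR-193b and miR-365 cluster, and miR-455, which have been tied to brown adipocyte differentiation in mice. miR-30 family members have been tied to the same process, and miR-133 to its inhibition.

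The sequences below are the miRNAs on which the results turn, from RefSeq on GRCm38.p6, written 5′ to 3′ with the seed in capitals. The let-7 guide strands, which were higher in the IP, share 1 seed.
let-7a-5p: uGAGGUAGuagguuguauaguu
let-7b-5p: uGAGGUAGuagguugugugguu
let-7c-5p: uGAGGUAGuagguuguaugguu
let-7d-5p: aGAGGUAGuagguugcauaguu
let-7e-5p: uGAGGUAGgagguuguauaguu
let-7f-5p: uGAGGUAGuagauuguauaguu
let-7g-5p: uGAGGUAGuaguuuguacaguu
let-7i-5p: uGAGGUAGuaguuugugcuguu
miR-98-5p: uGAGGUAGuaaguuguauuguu
These further strands were also higher in the IP.
miR-423-5p: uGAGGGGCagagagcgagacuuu
miR-676-3p: cCGUCCUGagguuguugagcu
miR-193a-5p: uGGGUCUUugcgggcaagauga
miR-193b-5p: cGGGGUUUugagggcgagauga
miR-365-1-5p: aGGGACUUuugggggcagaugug
miR-206-3p: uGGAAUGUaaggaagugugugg
The next strands were lower in the IP, and the first 6 of them begin with the same 5 bases.
miR-29a-3p: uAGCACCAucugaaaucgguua
miR-29b-3p: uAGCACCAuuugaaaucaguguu
miR-29c-3p: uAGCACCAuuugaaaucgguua
miR-15a-5p: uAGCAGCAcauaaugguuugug
miR-16-5p: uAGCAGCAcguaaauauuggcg
miR-195a-5p: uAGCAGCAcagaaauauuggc
miR-322-5p: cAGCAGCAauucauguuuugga
miR-101a-3p: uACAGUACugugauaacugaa
miR-340-5p: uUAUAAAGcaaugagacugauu
miR-30a-5p: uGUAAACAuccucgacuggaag
miR-30e-5p: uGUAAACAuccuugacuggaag
miR-7b-5p: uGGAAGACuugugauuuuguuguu
In the following 2 hairpins the arms were called in opposite directions on the TMM scale, although neither rise was called with total count.
miR-27a-5p: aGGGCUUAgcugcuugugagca
miR-27a-3p: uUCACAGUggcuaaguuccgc
miR-106b-5p: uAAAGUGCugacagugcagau
miR-106b-3p: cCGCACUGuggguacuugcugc

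By the GENCODE annotation of GRCm38, let-7a-5p lies at chr13:48538239-48538260 on the minus strand, in an exon of the lincRNA 6720427I07Rik that also holds let-7d-5p and a copy of let-7f-5p. miR-29a-3p lies at chr6:31062673-31062694 on the minus strand, outside any other annotated gene on that strand. miR-15a-5p lies at chr14:61632075-61632096 on the minus strand, in an intron of Dleu2, a non-coding host gene. miR-106b lies in an intron of Mcm7, and its 5p strand is at chr5:138165787-138165807 on the minus strand. miR-193b-5p, at chr16:13449533-13449554 on the plus strand, lies outside any other annotated gene on that strand.

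The IP libraries held 210554 to 816971 counts, with a median of 303403, and the inputs 968886 to 2121912, with a median of 1285031. The tissue label was checked against marker miRNAs in the inputs. miR-193b-3p stood at 225 to 1280 CPM (counts per 1000000 counted miRNA reads) in brown fat inputs, against 0 counts in the liver inputs and at most 39.2 CPM in the others. miR-365-3p stood at 532 to 2610 CPM in brown fat inputs and at no more than 65.4 CPM in an input of any other tissue. The striated muscle marker miR-1a-3p was also abundant in brown fat, at 4.81% to 23.83% of IP counts and 6.4% to 27.99% of input counts. The brain marker miR-124-3p had 0 counts in the 5 IP libraries and 13.2 to 35 CPM in the inputs. Another brain marker, miR-9-5p, was higher in brown fat, at 57 to 109 CPM in the IPs and 503 to 781 CPM in the inputs. In the hypothalamus inputs miR-9-5p stood at 29900 to 133000 CPM.

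The IP held fewer kinds of miRNA than the input, and a few miRNAs made up most of it. Thinned to 210554 counts each, the IP libraries were expected to show 365.7 ± 20.76 entries and the inputs 455.3 ± 22.86 (SD, n = 5 each; two-sided exact permutation test, p = 0.00794, the smallest p that 5 against 5 allows). The 10 most abundant miRNAs of each library took 83.98% ± 3.45 of the counts in the IP and 60.47% ± 5.86 in the input (SD, n = 5 each; exact permutation p = 0.00794). No IP library overlapped an input library in either measure. With the libraries paired by replicate number p was 0.0625 for each, the smallest that 5 pairs allow in an exact sign-flip test. Across the 305 miRNAs tested, the correlation of log levels was 0.924 to 0.972 between IP libraries, 0.96 to 0.988 between inputs and 0.621 to 0.783 between an IP and an input.

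Most miRNAs had a different share in the IP. Of 305 tested, 112 were called higher (36.7%) and 132 lower (43.3%) in the IP, by edgeR's quasi-likelihood test with an adjusted p under 0.05, which makes 80% called in either direction, and 61 were not called. The sign for many miRNAs depends on how libraries of such unequal makeup are scaled. The main scaling was by trimmed mean of M values (TMM). Scaling by the median of ratios (RLE) shifted the median log2 fold change of all tested miRNAs by -0.33 and gave 91 higher and 149 lower calls. Scaling by total count alone shifted it by -1.11 and gave 55 and 174. Under all 3 scalings 55 miRNAs were called higher and 132 lower, and 0 were called in the opposite direction by total count. As plain CPM, all 5 IP libraries lay above all 5 inputs for 40 miRNAs (13.1%) and below them for 155 (50.8%). Log2 fold changes here are IP minus input on the TMM scale, with the standard error (SE), while levels are plain CPM, and 24 miRNAs called higher had a lower mean CPM in the IP than in the input.

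**Figure D1:**
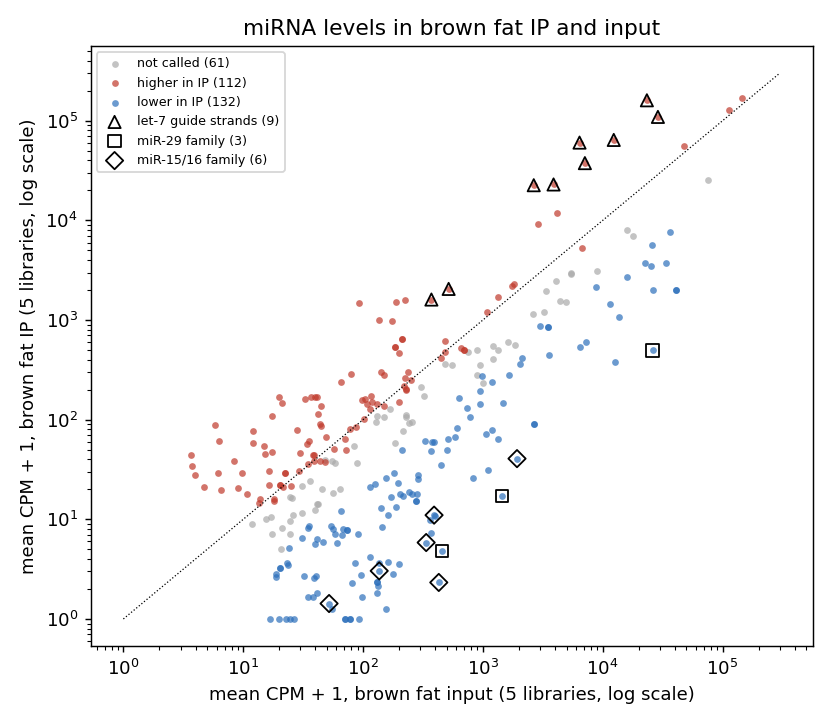
Each point is 1 of the 305 tested miRNAs, with its mean CPM + 1 in the 5 brown fat IP libraries (vertical, log scale) against that in the 5 inputs (horizontal, log scale), coloured by the edgeR call, and the dotted line marks equal CPM. The 9 let-7 guide strands lie above the line among the most abundant miRNAs, and the 3 miR-29 and 6 miR-15/16 family members lie far below it.

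The let-7 family led the rise. let-7 miRNAs are made late in development, repress growth regulators such as Hmga2, and are abundant in most adult tissues. All 9 guide strands measured were called higher, beside 36.7% of all 305 miRNAs tested. Their median log2 fold change was 3.53 (3.02 to 4.27), against -0.34 over all 305 miRNAs. Together they held a median of 48.78% of IP counts (40.97% to 54.83%) and 8.58% of input counts (7.14% to 10.58%). Taken with total count scaling their median was 2.4.

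let-7f-5p was the most abundant of them, at 151300, 169500, 158800, 147000 and 175800 CPM in IP libraries 1 to 5, against 28780, 30310, 20190, 21750 and 15850 CPM in inputs 1 to 5. Every IP library lay far above every input, and its log2 fold change was 3.84 (SE 0.345, edgeR adjusted p = 3.68e-08). let-7a-5p had the largest change of the family, with 48990, 91480, 57900, 41640 and 61820 CPM in the IPs against 7151, 7498, 5247, 6394 and 5748 CPM in the inputs. The groups were again fully apart, with a log2 fold change of 4.27 (SE 0.308, edgeR adjusted p = 6.02e-09). let-7g-5p had the smallest, at 3.02 (SE 0.341, edgeR adjusted p = 4.4e-07), with 109300 ± 29210 CPM in the IP and 28900 ± 4984 CPM in the input (SD, n = 5 each). All 10 tested miRNAs with the seed GAGGUAG were called higher, the tenth being miR-1961. The 4 tested let-7 passenger strands with the seed UAUACAA were called higher on the TMM scale. let-7b-3p averaged 239 ± 77.0 CPM in the IP and 64.9 ± 17.2 CPM in the input, and let-7f-1-3p 135.5 ± 36.6 CPM in the IP and 43.3 ± 10.4 CPM in the input (SD, n = 5 each), and both were also called with total count. let-7a-1-3p and let-7c-2-3p share their reads and so are 1 measurement. let-7a-1-3p averaged 203 ± 63.4 CPM in the IP and 229 ± 56.5 CPM in the input, and its call was lost with total count (-0.17, adjusted p = 0.639). Of passenger strands with other seeds, let-7d-3p rose by 1.47, but not all did. The log2 ratio of 5p to 3p counts rose by 6.25 for let-7i and 3.45 for let-7e. These shifts exceeded the rises of their 5p strands, 3.47 and 3.26. In the IPs the ratios ran from 13.3 to 17.1 for let-7i and from 6.86 to 9.13 for let-7e, which leaves few 3p counts. The size of both shifts, and so the comparison with the 5p strands, depends on the 0.5 added to each count.

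miR-5099 rose most of all miRNAs averaging 100 CPM or more. It is an entry whose function is not well known. It had 813, 2882, 557, 1078 and 2032 CPM in the IPs against 51.4, 133, 91.2, 105 and 73.9 CPM in the inputs. IP library 2 was the highest, and the groups did not overlap, with a log2 fold change of 5.02 (SE 0.377, edgeR adjusted p = 8.34e-09).

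Of the list of miR-320, miR-423, miR-484 and miR-676 strands, 5 of 6 were called higher and 0 lower, beside 36.7% and 43.3% of all miRNAs tested. For 3 of the 5 all IP libraries lay above all inputs. The other two were called higher on the TMM scale only, not with total count: miR-484 averaged 526 ± 208 CPM in the IP and 650 ± 205 CPM in the input (-0.31 with total count, adjusted p = 0.393), and miR-423-3p 481 ± 161 CPM in the IP and 485.5 ± 148 CPM in the input (-0.02, adjusted p = 0.961). miR-320 and miR-484 are made without the Drosha step that most hairpins need. miR-320-3p had 1373, 2323, 1104, 1358 and 1747 CPM in the IPs against 203, 248, 213, 253 and 197 CPM in the inputs. All IP values lay above all inputs, with a log2 fold change of 3.87 (SE 0.25, edgeR adjusted p = 5.27e-09). miR-676-3p stood at 1512 ± 459 CPM in the IP and 186 ± 53.3 CPM in the input (SD, n = 5 each), a log2 fold change of 4.07 (SE 0.292, edgeR adjusted p = 6.02e-09). miR-423-5p stood at 996 ± 435 CPM in the IP and 136 ± 37.8 CPM in the input, a log2 fold change of 3.88 (SE 0.314, edgeR adjusted p = 1.32e-08).

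**Figure D2:**
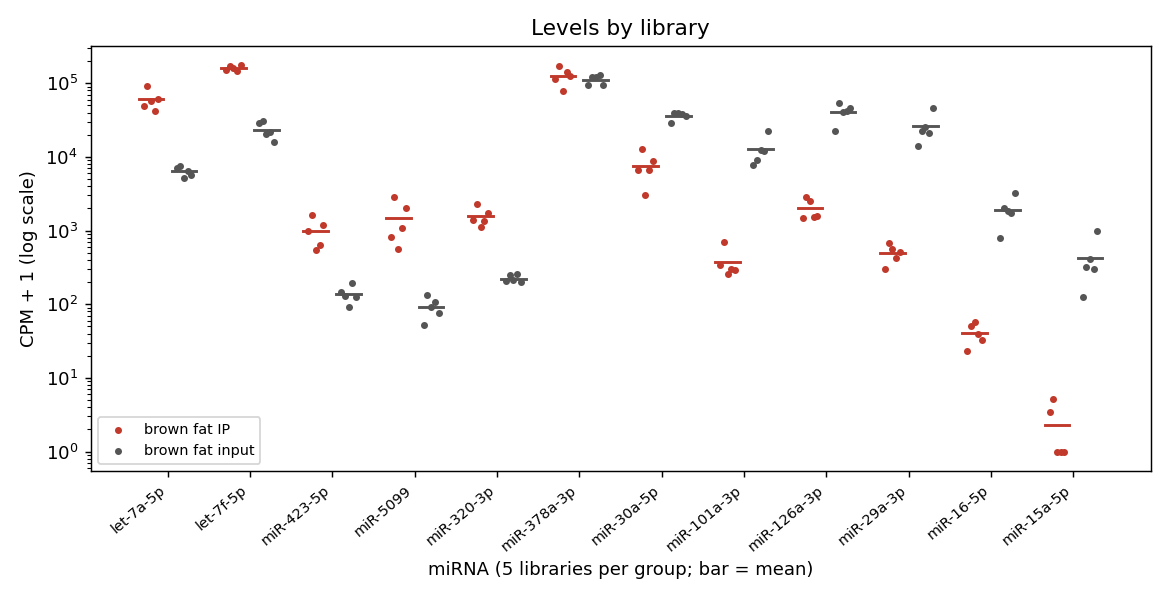
CPM + 1 (log scale) of 12 miRNAs in each brown fat library, with the 5 IP libraries left of the 5 inputs and a bar at the mean. The IP and input points do not overlap for any of them except miR-378a-3p, whose IP values spread from 78660 to 173400 CPM around those of the inputs.

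Members of a pair of families fell far among miRNAs averaging 100 CPM or more. The miR-29 family is known for repressing collagens and other matrix genes. It was called lower in 3 of 3 members, beside 43.3% of all miRNAs tested, with a median log2 fold change of -5.3. miR-29a-3p was among the abundant miRNAs of the input, and had 299, 677, 564, 423 and 510 CPM in the IPs against 14260, 22340, 25640, 21430 and 46840 CPM in the inputs. The highest IP library lay far below the lowest input, with a log2 fold change of -4.59 (SE 0.318, edgeR adjusted p = 5.92e-09). Together the family held a median of 0.0538% of IP counts and 2.39% of input counts.

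The miR-15/16 family represses cell cycle genes such as cyclins. It was called lower in 6 of 6 members, beside 43.3% of all miRNAs tested, with a median of -4.97. miR-16-5p had 22.03, 50.13, 56.03, 38 and 32.15 CPM in the IPs against 781, 2045, 1822, 1709 and 3279 CPM in the inputs. The groups were far apart, with a log2 fold change of -4.48 (SE 0.345, edgeR adjusted p = 8.34e-09). miR-15a-5p had 3 counts over the 5 IP libraries and 2833 over the inputs. From those counts it was lower by 123-fold on the TMM scale, with an exact 95% interval of 42.2 to 599. This interval covers counting error only. It pools the 5 libraries of each group, so it leaves out the spread between libraries, and PCR reads carry no molecular identifiers.

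Other abundant strands that fell lay outside these families. miR-101a-3p, known to repress the histone methyltransferase Ezh2, had 343, 698, 257, 304 and 287 CPM in the IPs against 7736, 8966, 12380, 12100 and 22670 CPM in the inputs. IP library 2 was the highest of its group and still far below the inputs, with a log2 fold change of -4.01 (SE 0.303, edgeR adjusted p = 8.34e-09). miR-340-5p averaged 8.96 ± 3.52 CPM in the IP and 360 ± 87.5 CPM in the input (SD, n = 5 each). miR-375-3p, best known from pancreatic islets, averaged 9.74 ± 3.34 CPM in the IP and 396 ± 121 CPM in the input. Its input level was not particular to brown fat, with means of 364 CPM in liver, 114 CPM in muscle and 11400 CPM in hypothalamus inputs. Both groups were fully apart for these miRNAs, with log2 fold changes of -4.03 and -4.33. A total of 21 entries with a mean of at least 10 CPM in the input had 0 counts in all 5 IP libraries. Among them miR-200a-3p, of an epithelial family and chosen after its values were seen, had 624 counts over the inputs and was at least 27.2-fold lower on the TMM scale and 58.7-fold on the total count scale, with the IP set at a floor of 3 counts over the group.

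Of 18 miRNAs tied to brown adipocytes and tested, 3 were called higher, 11 lower and 4 not at all, with a median log2 fold change of -1.43. Over all 305 miRNAs, 36.7% were called higher and 43.3% lower, with a median of -0.34. Together the 19 entries of this list held a median of 13.71% of counts in the IP (8.99% to 18.47%) and 17.9% in the input (14.67% to 19.49%). These ranges overlapped. Most of the sum was miR-378a-3p, with means of 127100 CPM in the IP and 112600 CPM in the input. The IP and the input came from the same tissue, so these values measure neither the number of brown adipocytes nor a level per cell. The reason for the lower median share in the IP was not tested.

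miR-378a-3p, the most abundant of them, had 115500, 173400, 78660, 143600 and 124500 CPM in the IPs against 93620, 121700, 121100, 131300 and 95210 CPM in the inputs. IP library 3 lay below all inputs, libraries 2 and 4 above them all, and the groups overlapped. On the TMM scale its log2 fold change was 1.23 (SE 0.278, edgeR adjusted p = 0.000652), while with total count it was 0.18 (adjusted p = 0.614). miR-193b-3p had 41.6, 12.5, 39.6, 176 and 42.9 CPM in the IPs against 225, 262, 407, 356 and 1283 CPM in the inputs. It was lower in every IP library than in any input, with a log2 fold change of -1.84 (SE 0.55, edgeR adjusted p = 0.00559), and without IP replicate 4 this was -2.53. miR-365-3p, its neighbour in the cluster, had 234 ± 179 CPM in the IP and 993 ± 903 CPM in the input (SD, n = 5 each). Its log2 fold change of -0.85 was not called (edgeR adjusted p = 0.128), but with a replicate block it was -1.02 by replicate number (adjusted p = 0.00371) and -0.82 over the 4 pairs that share a mouse (adjusted p = 0.0105). It was called without IP replicate 4 as well, at -1.32 (adjusted p = 0.0249). The other arm of its copy in this cluster, miR-365-1-5p, was higher, with 60.3 ± 38.5 CPM in the IP and 5.32 ± 3.57 CPM in the input and a log2 fold change of 4.41 (SE 0.432, edgeR adjusted p = 8.67e-08).

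miR-455-5p, which in mice promotes brown adipocyte formation, averaged 144 ± 65.5 CPM in the IP and 943 ± 482 CPM in the input (SD, n = 5 each). The groups did not overlap, with a log2 fold change of -1.65 (SE 0.366, edgeR adjusted p = 0.000559). miR-30 guide strands were called lower in 4 of 5 and higher in 0, beside 43.3% and 36.7% of all miRNAs tested. miR-30a-5p had 6675, 12790, 3069, 6744 and 8695 CPM in the IPs against 29210, 39340, 39390, 38100 and 36100 CPM in the inputs. All IP libraries lay below the inputs, with a log2 fold change of -1.25 (SE 0.281, edgeR adjusted p = 0.000627). miR-26a-5p, which promotes brown characteristics in human adipocytes, averaged 1997 ± 919 CPM in the IP and 26500 ± 5752 CPM in the input, a log2 fold change of -2.67 (SE 0.333, edgeR adjusted p = 1.37e-06).

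Markers of other cell types also differed between IP and input, in both directions. Of 6 striated muscle strands tested, 2 were called higher and 4 lower, beside 36.7% and 43.3% of all miRNAs tested. miR-206-3p, made in skeletal muscle, had 9294, 2356, 8988, 16480 and 8704 CPM in the IPs against 2271, 1031, 3743, 5385 and 1885 CPM in the inputs. Only IP library 2 fell within the range of the inputs, with a log2 fold change of 2.82 (SE 0.533, edgeR adjusted p = 0.000126). miR-1a-3p, which shares reads with miR-1b-5p, averaged 168500 ± 78510 CPM in the IP and 144300 ± 85240 CPM in the input. Its call rested on the scaling and on single libraries. The log2 fold change was 1.28 (SE 0.539, edgeR adjusted p = 0.0379), against 0.98 with RLE (adjusted p = 0.103) and 0.22 with total count (adjusted p = 0.664). The call was also lost without any 1 of inputs 2 to 5 (1.05 to 1.32) or of IPs 1, 3 and 4 (1.16 to 1.17), and without input 1 the value was 1.91. miR-133a-3p fell to 1456 ± 940 CPM in the IP, against 11470 ± 6121 CPM in the input, a log2 fold change of -1.74 (SE 0.558, edgeR adjusted p = 0.00863). Fitted with all 40 libraries this was -1.92 and not called (adjusted p = 0.0518).

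miR-122-5p, the dominant miRNA of hepatocytes, had 1105, 1299, 639, 1007 and 866 CPM in the IPs against 161, 130, 181, 212 and 180.5 CPM in the inputs. All IP values lay above all inputs, with a log2 fold change of 3.56 (SE 0.273, edgeR adjusted p = 8.34e-09). The other 3 liver strands tested were called lower. The endothelial strand miR-126a-3p fell to 1999 ± 665 CPM in the IP, against 41160 ± 11630 CPM in the input, a log2 fold change of -3.25 (SE 0.29, edgeR adjusted p = 3.53e-08), and shares its reads with miR-126b-5p. The liver counts and those that follow stand beside 36.7% called higher and 43.3% called lower over all miRNAs tested. A share of lower calls near that is no result about a cell type. Of 8 leukocyte strands, 4 were called lower and 0 higher. Of 8 fibroblast and smooth muscle strands, 1 was called higher and 4 lower. Of 10 brain strands, 1 was called higher and 7 lower. Of 5 red blood cell strands, 4 were called higher and 1 lower. The 4 are the miR-486 entries, which share reads, and the 1 is miR-451a, which had 5 counts over the IP libraries and 1303 over the inputs. The summed share of the leukocyte list ran from 0.0714% to 0.1084% in the IPs and from 0.1453% to 0.3541% in the inputs. That of the red blood cell list ran from 0.1453% to 0.3548% in the IPs and from 0.0708% to 0.1682% in the inputs. The part of these cell types in the results on the whole tissue was not tested.

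On the TMM scale, members of 1 seed family mostly moved together, while members of 1 genomic cluster often did not. Of the 11 seed families with at least 3 tested members, 2 had calls in both directions, and the median range of log2 fold changes within a family was 1.97. Of the 20 clusters of hairpins on 1 strand within 10 kb of each other and with at least 3 tested strands, 13 had calls in both directions, with a median range of 4.25. The SD over all tested miRNAs was 2.87. Families and clusters are not matched sets, so their ranges and mixed calls are not directly comparable. Clusters hold both arms of hairpins and up to 16 tested strands, against up to 10 in a family. Some strands, such as let-7f-5p, count in more than 1 cluster. The higher calls of miR-92a-3p, miR-25-3p, miR-106b-3p and miR-27a-5p, all in mixed clusters, were lost with total count. In the miR-17/92 cluster (chr14:115043671-115044506), known for driving proliferation, strands were called in both directions. miR-92a-3p had a log2 fold change of 1.39 and averaged 2281 ± 695 CPM in the IP and 1828 ± 431 CPM in the input (edgeR adjusted p = 7.29e-05), and with total count its log2 fold change was 0.32 (adjusted p = 0.311). miR-19b-3p from the same cluster averaged 6.35 ± 8.61 CPM in the IP and 368 ± 156 CPM in the input, a log2 fold change of -5.07 (SE 0.563, edgeR adjusted p = 3.59e-07), and of -5.92 without IP replicate 2. In the imprinted Dlk1-Dio3 region, which is active in development, 7 of 26 tested strands were called higher and 16 lower, beside 36.7% and 43.3% of all miRNAs tested. miR-382-5p had the highest log2 fold change of them, 3.19, and averaged 169 ± 57.2 CPM in the IP and 38.5 ± 8.48 CPM in the input.

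The arms of 1 hairpin start from the same precursor, so their balance was compared within each library as log2 of 5p over 3p counts, with 0.5 added to each. Of 68 hairpins with both arms tested, 17 shifted toward 5p in the IP (25%) and 32 toward 3p (47.1%), by limma with an adjusted p under 0.05. On the TMM scale the 5p strand was called higher and the 3p strand lower in 7 hairpins, and in 10 the reverse. This ratio needs no scaling between libraries, although 10 of the hairpins involve strands that share reads with another entry.

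For miR-193b, the arm ratio was 1.15, 3.99, 1.19, 0 and 1.70 in the IPs against -4.12, -3.50, -4.48, -3.74 and -5.96 in the inputs, so the input was mostly 3p and the IP was not. The shift was 5.96 (SE 0.701, limma adjusted p = 2.23e-05), and 5.37 without IP replicate 2. Its 5p strand stood at 146.5 ± 58.3 CPM in the IP and 19.99 ± 5.12 CPM in the input, a rise of 3.91 on the log2 scale, while the 3p strand fell, as given above. miR-193a shifted likewise by 6.41 (SE 0.623, limma adjusted p = 1.01e-05), though its 3p strand had only 6 counts over the IPs, and with 5 counts added to each arm the shift was 4.37. For miR-27a, a hairpin known to restrain adipocyte differentiation, the ratio was -1.64, -1.59, -2.38, -1.65 and -1.53 in the IPs against -5.93, -5.59, -5.90, -6.53 and -6.70 in the inputs. The 3p strand stayed the more abundant arm, with a shift of 4.37 (SE 0.297, limma adjusted p = 1.02e-06). The rise of miR-27a-5p, 1.77 on the TMM scale, was not called with total count (0.7, adjusted p = 0.0949).

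miR-30b moved the other way, with ratios of -2.15, -3.09, -1.27, -0.05 and -0.43 in the IPs against 4.72, 3.52, 4.31, 4.11 and 6.44 in the inputs. The guide strand led in every input and in 0 IP libraries, with a shift of -6.02 (SE 0.667, limma adjusted p = 1.77e-05). miR-30b-5p averaged 70.9 ± 50.3 CPM in the IP and 1061 ± 714 CPM in the input, and miR-30b-3p 167 ± 76.7 CPM in the IP and 39.9 ± 15.8 CPM in the input (SD, n = 5 each). miR-30 passenger strands were called higher in 5 of 6 and lower in 1, beside 36.7% and 43.3% of all miRNAs tested. All IP libraries lay above all inputs for 1 of the 6, and the median log2 fold change was 1.54 on the TMM scale and 0.46 with total count. miR-30e-3p, called higher on the TMM scale, averaged 499 ± 123 CPM in the IP and 692 ± 92.6 CPM in the input. For miR-106b, the 5p strand was counted 4 times in the IPs against 1095 times in the inputs, and the 3p strand 312 times against 933 times, a shift of -5.83 (SE 0.836, limma adjusted p = 6.21e-05). Without IP replicate 1 it was -5.2, without IP replicate 4 it was -6.47, and with 5 counts added to each arm in place of 0.5 it was -3.38 (adjusted p = 0.000132). The 3p strand of miR-106b had 142 ± 30.2 CPM in the IP and 130 ± 20.7 CPM in the input, and its call as higher was lost with total count (0.14, adjusted p = 0.669). miR-676 shifted by -3.9 (SE 0.342, limma adjusted p = 4.83e-06) and miR-340 by -4.0 (SE 0.299, limma adjusted p = 1.38e-06), or -3.39 with 5 counts added to each arm.

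**Figure D3:**
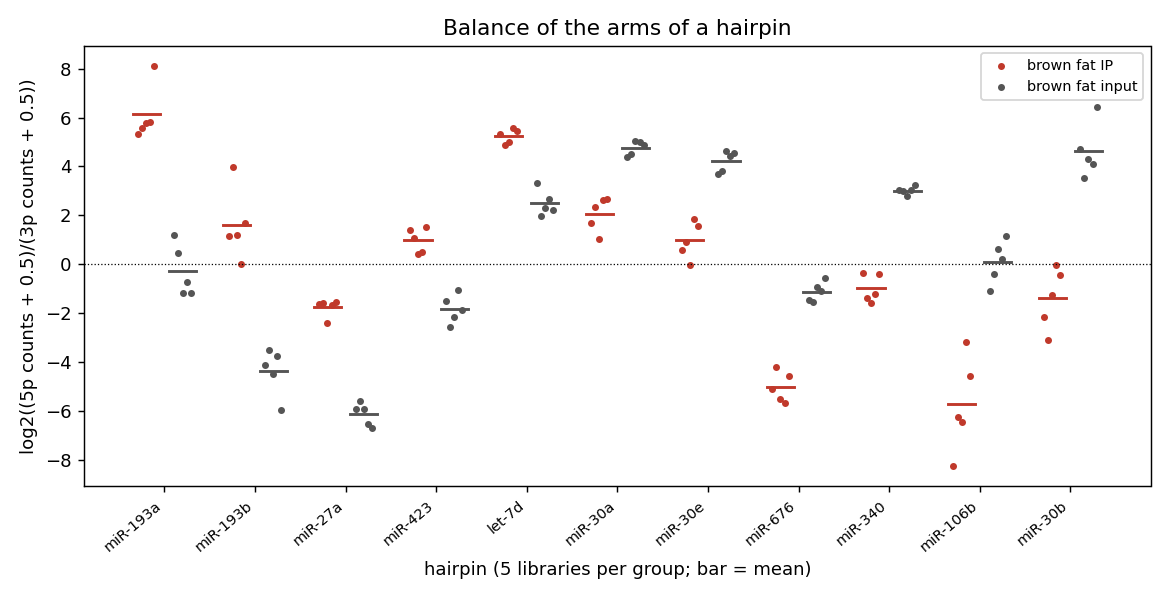
Log2 ratio of 5p to 3p counts (0.5 added to each) for 11 hairpins in each brown fat library, with the 5 IP libraries left of the 5 inputs, a bar at the mean and a dotted line at equal arms. The ratios are higher in all IPs than in all inputs for the first 5 hairpins, from miR-193a to let-7d, and lower for the other 6, from miR-30a to miR-30b.

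The base content of the mature strand went with the change in the IP. Thiouracil enters RNA in place of uracil, so the number of uridines was looked at first. Higher and lower miRNAs had the same median of 6 uridines, and the Spearman correlation of the percent of uridine with the log2 fold change was 0.06 over 266 miRNAs with a sequence and 0.24 over the 135 of them averaging 100 CPM or more. Of the 10 tested miRNAs with at most 2 uridines, 5 were called higher and 3 lower. Adenine and guanine showed a stronger relation. Higher miRNAs held 18.6% ± 8.3 adenine and lower ones 27.1% ± 8.8, and 28.7% ± 13 guanine against 22.3% ± 6.4 (SD over 96 and 118 miRNAs). The Spearman correlation was -0.46 for adenine and 0.37 for guanine (-0.46 and 0.39 over the 135 abundant ones), and 0.03 for cytosine and -0.04 for length. Without the let-7 guide strands it was -0.47 for adenine and 0.31 for guanine over 257 miRNAs. These correlations run across miRNAs measured in the same libraries, which are not independent replicates. Of 43 miRNAs with 8 or more guanines, 32 were called higher and 5 lower, with a median log2 fold change of 2.82, whereas of 26 with 8 or more adenines 4 were called higher and 17 lower, with a median of -2.37. Over all 305 tested miRNAs 36.7% were called higher and 43.3% lower, and the median was -0.34. Within hairpins, the arm shift correlated with the difference in the percent of guanine between the arms at a Spearman value of 0.47, and with that of adenine at -0.33, uridine at 0.2 and cytosine at -0.29 (54 hairpins).

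**Figure D4:**
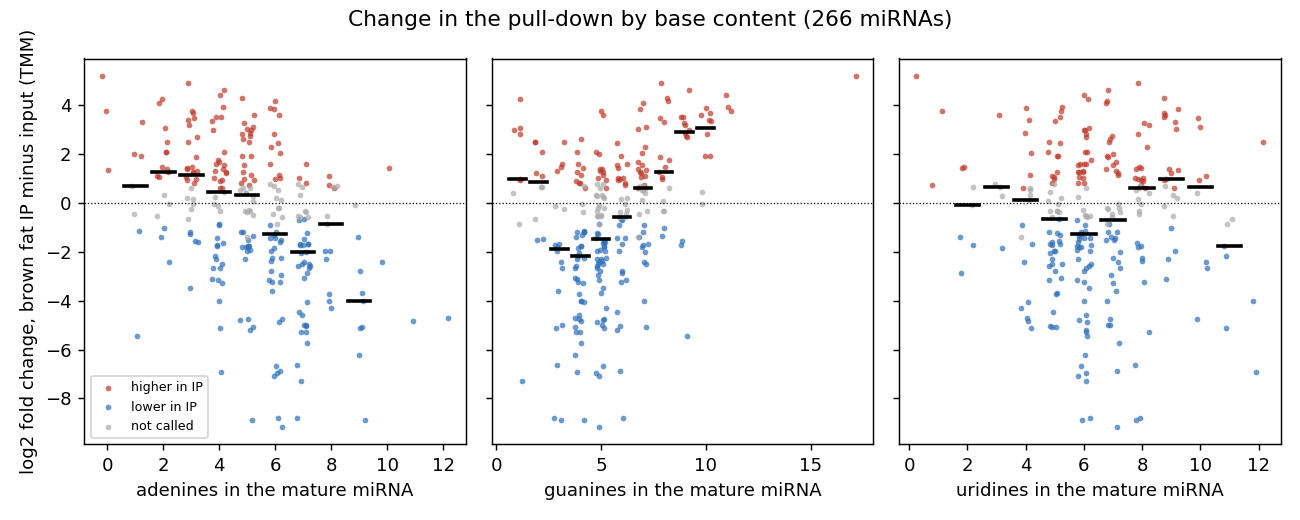
Log2 fold change (IP minus input, TMM scale) of 266 miRNAs by the number of adenines, guanines and uridines in the mature strand, coloured by the edgeR call, with a black bar at the median of each number held by at least 5 miRNAs. The median lies above 0 up to 5 adenines and below 0 from 6 on, and is highest for 9 and 10 guanines, while over the number of uridines it shows no single direction.

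The changes in brown fat were set beside those in liver, muscle and hypothalamus of the same set of mice, each tissue with its own inputs. The brown fat log2 fold changes had a Spearman correlation of 0.94 with those in liver (193 miRNAs tested in both), 0.94 with those in muscle (252) and 0.86 with those in hypothalamus (205). Of the miRNAs called in brown fat and in the other tissue, the direction was the same for 128 of 129 in liver, 178 of 180 in muscle and 124 of 131 in hypothalamus. The relation to adenine was alike there, with Spearman values of -0.5, -0.45 and -0.47. Tissues of the same mice were used, so these values are a description.

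**Figure D5:**
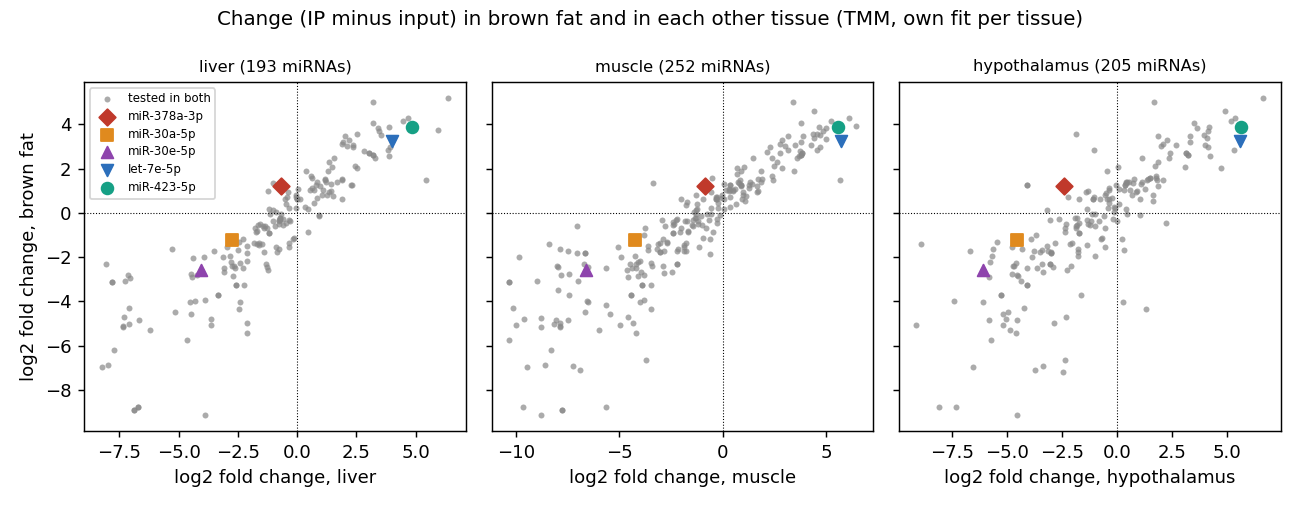
Log2 fold change (IP minus input, TMM scale) in brown fat (vertical) against that in liver, muscle and hypothalamus (horizontal), for miRNAs tested in both tissues. Most points follow a rising line, and miR-378a-3p, miR-30a-5p and miR-30e-5p are higher in brown fat than in each other tissue, while let-7e-5p and miR-423-5p are lower.

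To find where brown fat differed, its change was tested against the mean change of the other 3 tissues over all 40 libraries. Of 451 miRNAs tested, 46 had a higher change in brown fat (10.2%) and 10 a lower one (2.22%), by edgeR with an adjusted p under 0.05, with a median difference of 0.61 on the log2 scale. The split moved with the scaling, to 35 and 18 under RLE, 50 and 8 under total count, and 33 and 43 under DESeq2, whose median difference was -0.32. Under these 4 methods 30 were called higher each time and 8 lower. The counts also moved with single libraries. The higher count was 20 without brown fat IP replicate 2 and 77 without hypothalamus IP replicate 3, and the lower count was 6 without brown fat input replicate 1 and 24 without hypothalamus input replicate 4. That last library held 179000 CPM of the muscle marker miR-1a-3p, against a median of 1950 CPM over the hypothalamus inputs.

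miR-30e-5p and miR-30a-5p fell less in brown fat than elsewhere. miR-30e-5p averaged 1069 ± 470 CPM in the brown fat IP and 13580 ± 4687 CPM in its input (SD, n = 5 each). In the other tissues it averaged 13.9 to 43.2 CPM in the IPs and 1544 to 5008 CPM in the inputs. The difference was 2.94 (SE 0.488, edgeR adjusted p = 0.000162). miR-30a-5p, at 386 to 1148 CPM in the other IPs and 11380 to 18210 CPM in their inputs, had a difference of 2.52 (SE 0.464, edgeR adjusted p = 0.000554). Both differences were called in each alternative, without any 1 library and without the liver, and with a minimum mean of 10 CPM they were 2.25 for miR-30e-5p and 1.86 for miR-30a-5p.

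miR-378a-3p was the most abundant miRNA with such a difference. In the other tissues it averaged 1300 CPM in the liver IP and 5451 CPM in the liver input, 4789 CPM in the muscle IP and 16120 CPM in the muscle input, and 561 ± 321 CPM in the hypothalamus IP and 3441 ± 4374 CPM in the hypothalamus input (SD, n = 5 each). In liver and muscle all IP libraries lay below all inputs. In hypothalamus the IPs spread from 254 to 1047 CPM and the inputs from 1038 to 11240 CPM, with an input median of 1450 CPM, so the groups overlapped and 1 input, replicate 4, raised the mean. The difference was 2.35 (SE 0.57, edgeR adjusted p = 0.00495) and 1.48 without hypothalamus input replicate 4 (adjusted p = 0.022). It lost its call without the liver libraries (1.6, adjusted p = 0.0679) and with a minimum mean of 10 CPM (1.61, adjusted p = 0.0554). miR-101a-3p and miR-101b-3p had differences of 1.94 and 2.21 (edgeR adjusted p = 0.00835 and 0.00246). That of miR-5099 was 2.23 (edgeR adjusted p = 0.00246). Without brown fat IP replicate 2 the call was lost for miR-101a-3p (1.49, adjusted p = 0.0708) and miR-5099 (1.62, adjusted p = 0.0728). With a minimum mean of 10 CPM it was lost for miR-101a-3p (1.32, adjusted p = 0.0739), miR-101b-3p (1.55, adjusted p = 0.0507) and miR-5099 (1.45, adjusted p = 0.064). miR-5099 lost it without the liver too (1.35, adjusted p = 0.0939).

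let-7e-5p and miR-125a-5p, neighbours in the Spaca6 gene, and miR-423-5p rose less in brown fat than elsewhere. let-7e-5p averaged 1605 CPM in the brown fat IP and 371 CPM in its input, a log2 fold change of 3.17 in the fit of all 40 libraries. It was 3.83 in liver (841 CPM in the IP and 149 CPM in the input), 5.92 in muscle (1639 CPM in the IP and 50.5 CPM in the input) and 5.69 in hypothalamus (33750 CPM in the IP and 1119 CPM in the input), so liver was closest to brown fat. Its difference was -1.98 (SE 0.438, edgeR adjusted p = 0.00246). That of miR-125a-5p was -1.56 (SE 0.398, edgeR adjusted p = 0.00772) and that of miR-423-5p -1.61 (SE 0.449, edgeR adjusted p = 0.0143). miR-7b-5p, a miRNA of hypothalamic neurons, had a difference of -2.11 (SE 0.589, edgeR adjusted p = 0.0143), with 30.6 ± 4.37 CPM in the brown fat IP and 1103 ± 355 CPM in its input, against 35730 ± 28310 CPM in the hypothalamus IP and 45110 ± 31980 CPM in the hypothalamus input. In the fit of all 40 libraries its log2 fold change was -4.12 in brown fat, -2.60 in liver, -3.77 in muscle and 0.34 in hypothalamus, so muscle fell nearly as far as brown fat. These 4 differences were called under each alternative run, but moved with the tissues and miRNAs included. Without the liver libraries they were -3.56 for let-7e-5p, -2.52 for miR-125a-5p, -2.87 for miR-423-5p and -3.31 for miR-7b-5p. With a minimum mean of 10 CPM they were -2.66, -2.18, -2.29 and -2.7 in the same order.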

How the data were processed

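Small RNA libraries (NEBNext kit) were made from Trizol-extracted RNA, per the labels' protocols. The authors deposited 1 table of expected counts (estimated counts per mature miRNA), of which 18.9% of positive values were whole numbers within 0.001. The submitters' processing notes name fastp, STAR, featureCounts and mm10. Versions, annotation, strand setting and the treatment of multiply matching reads were not given in the sources used here. Values were rounded to whole counts, which changed a brown fat total by at most 0.023%. A total of 25 pairs of entries shared their reads (correlation over 0.995, at least 400 counts).

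In R 4.3.3, edgeR 4.0.16 (filterByExpr by group, TMM, quasi-likelihood test) was fitted to the 10 brown fat libraries, without a replicate block. The difference from the other tissues used all 40. Arm ratios were fitted with limma 3.58.1. Tests were two-sided, with Benjamini-Hochberg adjustment over all entries tested and a threshold of 0.05, and the code was tested on simulated data. Same-numbered libraries 1 to 4 share a mouse by the labels, and their deviations from the group means correlated at 0.43, 0.45, 0.16 and 0.03 (0.22 for number 5, mice 10 and 8). Nothing else says that samples are separate, so p-values measure the spread between these samples. The text names miRNAs with the largest called changes and a mean of at least 100 CPM, abundant miRNAs, list members and hairpins with the largest arm shifts, not all of which are printed. Lists and members were chosen with earlier results of these data known. Alternatives were RLE, total count, DESeq2 1.42.0, limma-voom, other filters, shared entries once, all 40 libraries, replicate blocks and leaving out each library.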

Additional observations from a re-analysis of the deposited data

Results flagged for a closer look

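In 166 groups of 5 values, 23 held a library far from the other 4 (Dixon's criterion, which chance meets in about 1 in 20 groups). IP library 2 was high for miR-423-3p (764.5 CPM, others 372.1 to 455.9), miR-195a-5p (25.06 CPM, others 3.296 to 9.499), miR-101a-3p (697.6 CPM, others 257.1 to 342.7), miR-30b-3p (300.8 CPM, others 105.5 to 147.2) and miR-21a-5p (10060 CPM, others 1355 to 3708). IP library 4 was high for miR-193b-3p, at 175.7 CPM, with the others at 12.53 to 42.87 CPM. Input library 5 was high for miR-451a (579 CPM, others up to 127.8), miR-193b-3p (1283 CPM, others up to 406.8) and miR-365-3p (2605 CPM, others up to 634.4). It was also high for miR-30b-5p (2328 CPM, others up to 871.3) and miR-223-3p (197.7 CPM, others up to 81.63). Input library 2 was high for miR-98-5p (678.1 CPM), miR-423-3p (748.3 CPM), miR-26a-5p (36690 CPM), miR-27a-5p (179.6 CPM) and miR-25-3p (2415 CPM). Input library 1 was low for miR-340-5p (207.4 CPM), miR-148a-3p (19630 CPM) and miR-24-3p (2030 CPM). For arm ratios, miR-193a stood apart in IP library 5 (8.11), miR-27a in IP library 3 (-2.38), and miR-199a in IP library 2 (-3.11) and input library 1 (-1.88).

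The change in brown fat differed from the mean change of the other tissues, by the test of the difference itself, for the 10 miRNAs whose differences are given above. It was higher for miR-378a-3p (2.35), miR-30a-5p (2.52), miR-30e-5p (2.94), miR-101a-3p (1.94), miR-101b-3p (2.21) and miR-5099 (2.23). It was lower for let-7e-5p (-1.98), miR-423-5p (-1.61), miR-125a-5p (-1.56) and miR-7b-5p (-2.11). These are not all the named miRNAs that differed. Also lower were let-7b-3p (-1.37, edgeR adjusted p = 0.0143) and let-7a-5p (-1.22, edgeR adjusted p = 0.0475). The call of let-7a-5p was lost with no filter on low counts (-1.38). Of the 5 miR-30 guide strands, 4 were called higher and 0 lower, beside 10.2% and 2.22% of all 451 miRNAs tested.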

How the results depend on the processing

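The 112 higher and 132 lower calls became 55 higher with total count, and 181 and 220 with no filter on low counts. Without 1 replicate they ran from 106 to 119 and from 130 to 147. The 46 higher and 10 lower differences from the other tissues became 26 higher with no filter, 12 and 31 with a minimum mean of 10 CPM, and 12 and 51 without the liver. They became 18 lower with RLE and 43 lower with DESeq2, and without 1 replicate ran from 20 to 77 and from 6 to 24. Arm shifts ran from 17 to 18 hairpins toward 5p and from 30 to 33 toward 3p. Detection at equal depth differed by -98.98 to -83.43 entries and the share of the top 10 by 22.01 to 25.8 points without 1 replicate. Paired by replicate number, they differed by -89.6 and 23.5 (exact sign-flip p = 0.0625 each, the smallest possible). With total count, miR-423-3p turned to -0.02 (adjusted p = 0.961) against 1.04, and miR-30d-5p to -0.98 (adjusted p = 0.0087) against 0.03. With total count the log2 fold changes of all tested miRNAs shifted by a median of -1.11, so these moves were not particular to these miRNAs. The cause of the other changes given here was not tested.

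Of the 66 brown fat miRNAs followed through all alternatives, 8 lost a call somewhere, and miR-143-3p, miR-365-3p and miR-30d-5p gained one. With the replicate block, miR-365-3p gained a call under both pairings and miR-143-3p by replicate number (-0.6, adjusted p = 0.0485). The block changed no other call among them. Calls of the 14 hairpins followed held in every alternative, as did the directions of the 10 differences followed, of which 4 lost a call somewhere. IP depth limits miRNAs whose IP total is a few counts.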
